A study of Mus musculus with 21 samples.

Results

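Within leukemic bone marrow (BM), CD11b+ myeloid cells were compared with LSK cells, the sorted fraction that holds hematopoietic stem and early progenitor cells. The 6 libraries whose titles give an S3 mouse and one of these marrow fractions were taken out of 21 libraries in the series, 3 for each fraction. S3 is the terminally ill stage of MxCre;Ptpn11D61Y/+ mice, a mouse model of juvenile myelomonocytic leukemia. These mice carry 1 Ptpn11 allele that codes for the D61Y form of the phosphatase SHP2 behind a Neo-Stop cassette, and the MxCre transgene, which is switched on by interferon and removes the cassette.

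The control fractions used further on were 2 libraries of each fraction from MxCre mice, which carry the transgene and normal Ptpn11, and 2 of each from Ptpn11D61Y/+ mice, which have no Cre, so that the cassette keeps the mutant allele silent and 1 functional allele remains. By the study's methods all mice, controls included, received poly I:C, an inducer of interferon, whereas the labels record no treatment. The Mx1 promoter acts in many interferon-responsive cells, and the share of cells that had recombined in each library was not given, nor were the ages of the animals. LSK cells were sorted as lineage-depleted, Sca-1+ and Kit+ cells and CD11b+ cells were isolated on magnetic columns or by sorting. In both fractions RNA was extracted with the RNeasy Micro kit and made into TruSeq libraries. S3 animals 540 and 815 gave a library of each fraction, animal 640 gave only CD11b+ cells and animal 768 only LSK cells. The labels give the control libraries replicate numbers and no animal.

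Granulocytes and monocytes are made from stem and progenitor cells by stepwise differentiation, in which stem cell regulators are shut off and the genes of each granule type are switched on in turn. Primary granules, which hold myeloperoxidase and serine proteases, are filled at the promyelocyte stage, secondary granules with lactoferrin at the myelocyte stage and tertiary granules with gelatinases later still. SHP2 relays signals of cytokine and growth factor receptors to RAS and ERK, and the D61Y form is constitutively active and drives myeloproliferation.

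Total counts were 54184860, 34992610 and 73163041 in the CD11b+ libraries of animals 540, 815 and 640, and 101217470, 68319460 and 93695708 in the LSK libraries of animals 540, 815 and 768. In every list of library values below the animals follow this order. Counts above 0 were found for 19772, 14761 and 22865 genes in the CD11b+ libraries and for between 22718 and 23347 in the LSK libraries, so that CD11b+ 815 was the shallowest library and detected the fewest genes. Levels are log2 CPM, in which CPM is a gene's count set on a common library total, after scaling by the trimmed mean of M-values (TMM) with a prior count of 2. On this scale −5.26 stands for a count of 0.

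The 3 CD11b+ libraries did not form a tight group. Globin genes held 5.34%, 9.25% and 1.68% of their counts, and the neutrophil calprotectin pair S100a8 and S100a9 held 5.11%, 4.46% and 1.43%, so that CD11b+ 640 stood below the other two in both. Xist, the transcript of the inactive X chromosome, had 2780 counts in CD11b+ 540 beside 691 counts of the Y-linked gene Eif2s3y, whereas LSK 540 had 1 and 3829. The CD11b+ 540 library therefore carried RNA of both sexes, while the LSK library labelled with the same animal did not. CD11b+ 815, LSK 815 and LSK 768 had no count of Eif2s3y, with 3154, 39460 and 88850 counts of Xist, and CD11b+ 640 had 9 counts of Xist with 4661 of Eif2s3y. Among the control libraries used here, 1 had the same mixture, MxCre CD11b+ replicate 2, with 2834 counts of Xist and 1472 of Eif2s3y. Results are therefore also given without CD11b+ 540. For lists this is the number of members called higher and then the number called lower. The same is given without CD11b+ 640, with the animal as a replicate block and by DESeq2 where it moved a count by over 1.5 times, or, without CD11b+ 640, the median by as much or across 0.

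The genes of the proteins used to isolate the fractions were read as a check of the labels only. Itgam, which encodes CD11b, had levels of 9.37, 7.46 and 9.89 in the CD11b+ libraries and 5.40, 6.56 and 6.12 in the LSK libraries. Kit had 4.34, 4.37 and 4.54 in the CD11b+ libraries against 8.44, 8.17 and 8.32 in the LSK libraries. Ly6a, which encodes Sca-1, did not separate the fractions, with levels of 5.58, 7.90 and 4.50 in the CD11b+ libraries and 5.41, 6.25 and 6.18 in the LSK libraries. Neither Itgam nor Kit overlapped between the fractions, and their differences followed the gates, at log2 fold changes of 3.11 and −3.90.

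Of 19555 genes tested with edgeR's quasi-likelihood test, 5301 (27.1%) had a Benjamini-Hochberg adjusted p under 0.05 and are referred to as called. Of these, 2823 (14.4% of the genes tested) were higher in CD11b+ cells and 2478 (12.7%) were lower. These shares are the background for the counts of every list below. The changes were large, with 628 higher and 470 lower genes at a log2 fold change of 4 or more in size and 197 and 138 at 6 or more. The median log2 fold change over all genes tested was −0.08. With library size alone in place of TMM this median moved to −0.64 and the balance of calls turned, from 53.3% higher to 26.2% higher (1507 higher and 4236 lower). With limma-voom, 38.2% of 6140 calls were higher. The balance also turned with the replicate block (2529 higher and 3173 lower) and without CD11b+ 640 (3335 higher and 3840 lower). Without CD11b+ 540 there were 3480 calls, 2100 higher and 1380 lower. Without both libraries labelled 540 the number fell to 1398, 868 higher and 530 lower, and 70 of the 166 called genes named here lost their call. Among them, beside the genes whose lost calls are given with their values, were Gata2 (adjusted p = 0.0535), Flt3 (0.0511), Mcl1 (0.0522), Pmaip1 (0.0551), Itgam (0.0659), Prom1 (0.115) and Isg15 (0.0666). Others were Aen, Batf3, Birc5, Cd36, Cd3e, Cpa3, Etv6, Ier5, Nop58, Osm, Phf6, Pola1, Rras, Socs5 and Tlr13, between 0.0506 in Rras and 0.111 in Aen. The 9563 genes without overlap between the fractions were 48.9% of those tested. Because the libraries were made from bulk fractions, a lower level can mean fewer cells of a type or less RNA per cell, and these cannot be told apart.

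Stem and progenitor regulators were lower in CD11b+ cells. Of 30 such genes tested, which include the sort genes Kit and Ly6a, 24 fell, Kit among them, and Prom1, which encodes the membrane protein prominin 1, rose (2.13), with a median log2 fold change of −3.72 beside −0.08 over all genes. Without CD11b+ 540, 23 were called lower and 1 higher, with a median of −3.60. Angpt1, which encodes the ligand of the TIE2 receptor, had the largest fall among the genes that met the naming rule, from levels of 7.48, 6.74 and 6.70 in LSK cells to −1.0, 1.03 and −0.36 in CD11b+ cells, a log2 fold change of −6.95 (SE 0.56, adjusted p = 6.33e-06). Cd34, a surface sialomucin of progenitors, had levels of 8.68, 8.61 and 8.58 in LSK cells and 2.34, 4.11 and 2.63 in CD11b+ cells and fell by 5.38. For both genes the fractions were far apart, and the CD11b+ libraries varied more among themselves than the LSK libraries did.

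Mecom, which encodes the stem cell regulator EVI1, had counts of 3046, 1711 and 1553 in LSK cells and of 0, 0 and 15 in CD11b+ cells, so that its only counts among the CD11b+ libraries came from animal 640 (adjusted p = 7.91e-05). Hlf, a transcription factor of long-term stem cells, had levels of 1.34, 1.34 and 1.05 in the CD11b+ libraries and 6.51, 5.91 and 5.43 in the LSK libraries (log2 fold change −4.78, SE 0.84, adjusted p = 9.88e-04). Nkx2-3 had counts of 467, 193 and 292 in LSK cells and at most 1 in any CD11b+ library, and against a floor of 3 counts per library its level was at least 5.14 log2 units lower. The zinc finger factor gene Gata2 fell by 3.66 and the lymphoid-primed progenitor receptor gene Flt3 by 3.66, with adjusted p of 0.00567 and 0.00332. Other large falls by the naming rule, beside immunoglobulin segments given further on, were in Adgrl4 (−6.04), Spns2 (−5.30), Muc13 (−5.29) and Adgrg1 (−5.25), the last encoding the receptor GPR56 of stem cells.

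The HOXA genes and their TALE cofactors fell in part. Of 15 tested, 7 fell and 1 rose (1 higher and 6 lower without CD11b+ 540, 2 and 9 by DESeq2), with a median of −2.99, and Hoxa11 and Hoxa13 had too few counts to be tested. Meis1, the cofactor with the strongest link to leukemic self-renewal, had 6.18, 6.35 and 6.0 in LSK cells and 0.21, 1.08 and 1.66 in CD11b+ cells (log2 fold change −5.09, SE 0.49, adjusted p = 1.59e-05). Hoxa9, its partner, had 5.20, 5.10 and 4.85 against 0.35, 1.46 and 2.19 (log2 fold change −3.55, SE 0.50, adjusted p = 2.42e-04). In both genes CD11b+ 640 kept the highest and CD11b+ 540 the lowest level of the CD11b+ libraries. Pbx2 alone rose, by 1.31, a call that was lost with library size alone (adjusted p = 0.149) and without any 1 of LSK 815, CD11b+ 815 and LSK 768 (adjusted p from 0.0529 to 0.0927). Of 19 genes primed early for the lymphoid or the megakaryocyte and erythroid fates, 3 fell and 1 rose (0 higher and 2 lower without CD11b+ 540, 2 and 2 with a median of 0.03 without CD11b+ 640, 0 and 3 with the replicate block, 2 and 3 by DESeq2), with a median of −0.26. The background was 12.7% lower and 14.4% higher over all genes tested. The 3 were Vwf, which encodes von Willebrand factor, with 6.70, 6.26 and 6.18 in LSK cells and 1.93, 1.38 and 2.99 in CD11b+ cells (log2 fold change −4.14, SE 0.56, adjusted p = 1.36e-04), the integrin gene Itga2b (−2.61) and the platelet factor gene Pf4 (−3.01), whose call is described with the megakaryocyte genes. The rise was in Ebf1, a B cell factor, at 2.31, a call lost with library size alone (adjusted p = 0.138), with the replicate block (adjusted p = 0.0704) and without any 1 of LSK 540, CD11b+ 540, LSK 815, CD11b+ 815 and LSK 768 (adjusted p from 0.0715 to 0.193).

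Granule proteins split by the stage at which they are made. All 20 secondary and tertiary granule genes rose, with a median log2 fold change of 5.66 and a range from 3.27 to 9.37. Without CD11b+ 540 all 20 were again called higher, with a median of 5.21. Of 12 primary granule genes, also without CD11b+ 540, only Ctsc, which encodes the protease that activates the granule serine proteases, was called (log2 fold change 2.14, SE 0.41, adjusted p = 0.00177). Over all genes tested, 14.4% were called higher and 12.7% lower. The median of the primary granule list was −0.14, a value that took either sign among the alternatives. Summed over each list, the ratio of secondary and tertiary to primary granule CPM was 15.2, 11.2 and 5.03 in the CD11b+ libraries and 0.0861, 0.26 and 0.108 in the LSK libraries. The ratio therefore separated the fractions without overlap, and CD11b+ 640 had the lowest value of the CD11b+ libraries.

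Promoter stretches of genes on either side of this split are shown because their products fill the granules of successive stages. Promoter windows of 250 bases before to 50 bases after the start were taken from RefSeq on GRCm38.p6, matched by symbol for 12760 of 19454 tested symbols, and 120 bases that hold the match nearest to the start are printed 5′ to 3′ on the strand of the gene. Capitals mark the letters TTGCNNAA, a core of sites for C/EBP factors on either strand, in Ltf (chr9:111019167-111019286, plus strand), Ngp (chr9:110419738-110419857, plus strand) and Mmp8 (chr9:7558359-7558478, plus strand).
Ltf: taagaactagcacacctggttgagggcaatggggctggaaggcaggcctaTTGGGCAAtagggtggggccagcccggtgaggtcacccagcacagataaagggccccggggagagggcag
Ngp: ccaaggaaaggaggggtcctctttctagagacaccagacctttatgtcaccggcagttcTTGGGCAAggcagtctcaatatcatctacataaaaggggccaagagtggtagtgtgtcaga
Mmp8: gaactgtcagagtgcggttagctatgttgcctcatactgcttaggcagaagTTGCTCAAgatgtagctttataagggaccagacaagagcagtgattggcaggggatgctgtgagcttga

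For 3 primary granule genes, capitals mark GAGGAAG, a core of sites for the myeloid factor PU.1, in Mpo (chr11:87793534-87793653, plus strand), Elane (chr10:79886177-79886296, plus strand) and Prtn3 (chr10:79879522-79879641, plus strand).
Mpo: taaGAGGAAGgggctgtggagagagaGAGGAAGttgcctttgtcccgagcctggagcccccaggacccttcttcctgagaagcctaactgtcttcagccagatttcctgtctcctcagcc
Elane: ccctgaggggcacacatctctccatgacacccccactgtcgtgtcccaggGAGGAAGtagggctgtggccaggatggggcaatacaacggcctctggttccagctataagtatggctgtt
Prtn3: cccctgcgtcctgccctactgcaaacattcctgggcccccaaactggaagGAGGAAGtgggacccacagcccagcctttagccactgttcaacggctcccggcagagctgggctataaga

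TTGCNNAA was found on either strand in 6 of 17 secondary and tertiary granule promoters (Ltf, Ngp, Lcn2, Mmp8, Anxa1 and Adam8) and in 2 of 11 primary granule promoters, beside 8.79% of the windows of tested genes and 10.8% of all 27025 promoters. GAGGAAG was found in 5 of 11 primary granule promoters and in 7 of 17 secondary and tertiary ones, beside 13.9% of the windows of tested genes and 13.5% of all promoters. Among all called genes with a window, GAGGAAG was in 16.7% of those higher and 11.7% of those lower in CD11b+ cells, and TTGCNNAA in 10.5% and 7.87%. AGATAA, a form of the GATA site, was in 6.79% and 7.04%, beside 7.17% of the windows of tested genes and 11.4% of all promoters. The strings were searched separately on both strands and a window can hold more than 1 of them. A match of letters is a description of these windows and not a binding site.

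Ltf (lactoferrin, ENSMUSG00000032496, chr9:111019271-111042767, plus strand on mm10) had levels of 14.45, 14.32 and 11.86 in the CD11b+ libraries and 5.0, 6.79 and 5.50 in the LSK libraries, a log2 fold change of 7.95 (SE 0.85, adjusted p = 2.71e-05). Camp, which encodes the antimicrobial peptide CRAMP, lies on the same chromosome within 1.20 Mb of Ltf with Ngp between them. Its levels were 13.89, 14.01 and 11.20 in the CD11b+ libraries and 6.29, 7.55 and 6.79 in the LSK libraries (log2 fold change 6.50, SE 0.77, adjusted p = 4.67e-05). Ngp (neutrophilic granule protein) had 14.65, 13.76 and 13.17 against 6.89, 8.48 and 7.58 (log2 fold change 6.20, SE 0.67, adjusted p = 2.88e-05). In all 3 genes CD11b+ 640 had the lowest CD11b+ level and LSK 815 the highest LSK level, without overlap between the fractions.

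The collagenase gene Mmp8 reached only −0.34, 0.47 and −0.37 in LSK cells, against 9.41, 10.12 and 6.67 in CD11b+ cells (log2 fold change 9.37, SE 0.92, adjusted p = 1.67e-05). The gelatinase gene Mmp9 had 1.24, 1.66 and 1.48 against 10.57, 10.79 and 9.47 (log2 fold change 8.93, SE 0.66, adjusted p = 5.74e-06). Lcn2 (lipocalin 2) rose by 6.97 and Ifitm6 by 7.19, with adjusted p of 3.33e-05 and 2.11e-05. These genes covered the tertiary as well as the secondary granules, and the gelatinase gene differed less between the CD11b+ libraries than the collagenase gene did.

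The primary granule genes were abundant in both fractions. Mpo (myeloperoxidase, chr11:87793581-87804413, plus strand) had levels of 10.43, 10.46 and 10.43 in CD11b+ cells and 11.64, 11.36 and 11.90 in LSK cells, a log2 fold change of −1.21 (SE 0.53, adjusted p = 0.0997), and was lower in each CD11b+ library. Among the alternatives it was called lower with library size alone (adjusted p = 0.0282) and in a fit of the 6 libraries alone. Elane, the neutrophil elastase gene, had 9.64, 8.25 and 9.12 in the CD11b+ libraries and 9.39, 9.21 and 9.63 in the LSK libraries (log2 fold change −0.31, SE 0.56, adjusted p = 0.7). Prtn3 (proteinase 3), which lies next to Elane within 13.7 kb, had 10.35, 10.34 and 9.69 in the CD11b+ libraries and 9.06, 9.44 and 9.69 in the LSK libraries (log2 fold change 0.74, SE 0.57, adjusted p = 0.332). Corrected for exon length, Mpo had 405 CPM per kb in CD11b+ cells and 938 in LSK cells, and Ltf had 4493 CPM per kb in CD11b+ cells and 18.1 in LSK cells. Per length, Mpo thus stood above Ltf in LSK cells and far below it in CD11b+ cells.

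**Figure D1:**
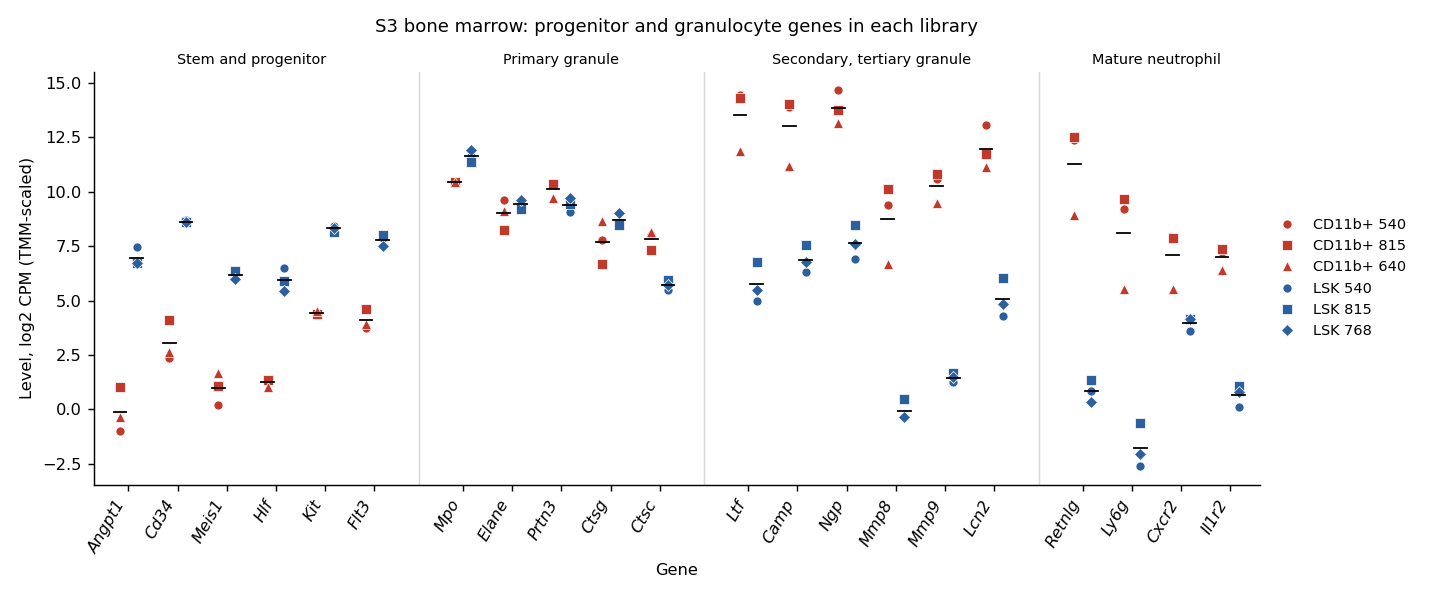
Levels of progenitor, granule and neutrophil genes (log2 CPM, y axis) in the 3 CD11b+ and 3 LSK libraries of S3 marrow, with genes grouped as stem and progenitor, granule and neutrophil genes along the x axis. Points are libraries and bars are means of 3. The primary granule genes Elane and Prtn3 sit at overlapping or adjoining levels, whereas Ltf, Mmp8 and Ly6g stand apart without overlap, and CD11b+ 640 is the lowest CD11b+ library for these 3.

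Genes of mature neutrophils rose, 17 of 20 without a fall, at a median of 5.01. Retnlg, which encodes a resistin-like protein of neutrophils, had 12.35, 12.51 and 8.91 in CD11b+ cells and 0.84, 1.34 and 0.36 in LSK cells (log2 fold change 11.03, SE 1.17, adjusted p = 2.64e-05). Ly6g, the surface antigen that marks mouse neutrophils, had 9.18, 9.64 and 5.55 against −2.59, −0.64 and −2.04 (log2 fold change 10.53, SE 1.15, adjusted p = 3.28e-05). For both genes CD11b+ 640 lay more than 3 log2 units below the other CD11b+ libraries and all 3 stayed above every LSK library. By mean, S100a9 was the most abundant gene of the CD11b+ libraries, at 3.66%, 3.20% and 0.995% of their counts. It was not first in each of them, with Hba-a1 at 1.90%, 4.18% and 0.543% and Ngp at 2.10%, 1.05% and 1.09%. S100a9 rose by 6.47 (SE 0.75, adjusted p = 4.16e-05). Il1r2, the decoy receptor of interleukin 1, rose by 6.35. Cxcr2, the chemokine receptor of neutrophils leaving the marrow, had 7.85, 7.88 and 5.55 in the CD11b+ libraries and 3.58, 4.15 and 4.17 in the LSK libraries (log2 fold change 3.43, SE 0.66, adjusted p = 0.00195), whereas Cxcr1 was not called (log2 fold change −0.32, SE 1.03, adjusted p = 0.838). Without CD11b+ 540, 16 of the 20 were called higher, with a median of 4.85.

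The regulators of granulocyte and monocyte fates moved unequally. Of 24 myeloid transcription factors, 12 rose and 3 fell (median 0.99, 12 higher and 2 lower without CD11b+ 540, 7 and 4 with the replicate block). Of all genes tested 14.4% were higher and 12.7% lower, so that the share of falls in this list was near that of all genes. Cebpb, the factor of emergency granulopoiesis, had 8.48, 9.57 and 6.20 in the CD11b+ libraries and 1.96, 3.56 and 2.78 in the LSK libraries (log2 fold change 5.73, SE 1.07, adjusted p = 0.0015). Cebpe, which drives secondary granule genes, rose by 3.68 (SE 0.55, adjusted p = 3.06e-04). Cebpa, which acts earlier, was not called, with 6.52, 5.07 and 6.93 in the CD11b+ libraries and 6.33, 6.43 and 6.51 in the LSK libraries (log2 fold change −0.06, SE 0.38, adjusted p = 0.916), and Gfi1 likewise had −0.28 (SE 0.48, adjusted p = 0.678). Spi1, which encodes PU.1, rose by 1.71 (SE 0.41, adjusted p = 0.007), a call lost with the replicate block (adjusted p = 0.0528). Klf2, a factor of resting leukocytes, rose by 4.47. Irf8, which directs monocytes and dendritic cells, was at 7.83, 8.21 and 7.02 in the CD11b+ libraries and 7.38, 8.60 and 8.48 in the LSK libraries and was not called (log2 fold change −0.48, SE 0.42, adjusted p = 0.404) but was called with library size alone (adjusted p = 0.0318). The falls were in Myc, described with ERK output, Etv6 (−2.11) and Myb, a factor of proliferating progenitors (−1.86, a call lost without CD11b+ 540 (adjusted p = 0.0513)).

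Beside 14.4% higher and 12.7% lower of all genes tested, 9 of 20 monocyte genes rose and none fell, at a median of 2.0. DESeq2 called 14 of them higher. In edgeR the number was 8 without CD11b+ 540, and without CD11b+ 640 it was 9 with a median of 1.27. Cd14, the co-receptor for lipopolysaccharide, had 7.19, 4.41 and 7.79 in the CD11b+ libraries and 0.75, 1.63 and 1.18 in the LSK libraries (log2 fold change 5.81, SE 0.81, adjusted p = 1.74e-04), and CD11b+ 815 was the lowest CD11b+ library. Lgals3 (galectin 3) rose evenly, from 4.80, 5.46 and 5.08 to 10.46, 10.10 and 9.88 (log2 fold change 5.03, SE 0.42, adjusted p = 7.32e-06). The lysosomal protease gene Ctss rose by 2.92. Fn1 (fibronectin) rose by 5.53, a call lost with the replicate block (adjusted p = 0.0647). Csf1r, the receptor of macrophage colony-stimulating factor, had 8.31, 6.97 and 9.64 in the CD11b+ libraries and 5.25, 7.71 and 7.23 in the LSK libraries, which overlapped, and was not called (log2 fold change 1.64, SE 0.63, adjusted p = 0.0617) but was called by DESeq2 (adjusted p = 0.0329) and without CD11b+ 815 (adjusted p = 0.0253). Ccr2, the receptor for exit of inflammatory monocytes from marrow, was called at 2.01 (SE 0.62, adjusted p = 0.0264) and lost the call with library size alone (adjusted p = 0.11) and without any 1 of LSK 540, CD11b+ 540, LSK 815, CD11b+ 815 and LSK 768 (adjusted p from 0.0515 to 0.107).

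Beside 14.4% higher and 12.7% lower of all genes tested, macrophage genes included 11 of 16 that rose and 1 that fell (9 higher and 0 lower without CD11b+ 540, 10 and 0 with a median of 2.33 without CD11b+ 640, 8 and 0 with the replicate block), at a median of 2.65. The complement genes C1qa, C1qb and C1qc, made by tissue macrophages, rose by 6.01, 5.23 and 5.16, and C1qa had 8.87, 9.98 and 9.32 in the CD11b+ libraries and 3.94, 2.31 and 3.65 in the LSK libraries (log2 fold change 6.01, SE 1.01, adjusted p = 7.20e-04). The fall was in the scavenger receptor gene Cd163 (−2.37), a call lost with the replicate block (adjusted p = 0.0708) and without any 1 of LSK 540, CD11b+ 540, LSK 768 and CD11b+ 640 (adjusted p from 0.0599 to 0.0878). The LSK levels of C1qa were lowest in animal 815, in which the CD11b+ level was highest. Cd5l, which encodes a secreted protein of macrophages, had 7.01, 6.61 and 5.58 in the CD11b+ libraries and 2.18, −0.87 and 2.20 in the LSK libraries (log2 fold change 4.84, SE 1.03, adjusted p = 0.00352). The scavenger receptor gene Marco had counts of 10, 0 and 65 in CD11b+ cells and none in LSK cells, so that no fold can be given beyond a bound of 3.69 log2 units against 3 counts per library. Its call was lost with the replicate block (adjusted p = 0.0757) and without CD11b+ 640 (adjusted p = 0.0658). Of 12 dendritic cell genes 6 rose and 1 fell, beside the same shares of all genes tested (median 1.77, 5 higher and 1 lower without CD11b+ 540, 2 and 1 with the replicate block, 4 and 4 with library size alone). Among the rises was Batf3 (log2 fold change 2.83, SE 0.66, adjusted p = 0.00607), the factor of cross-presenting dendritic cells. Ccr7 and Cd83, which mark mature dendritic cells, and Irf4 rose by 3.13, 3.02 and 1.83. These calls were lost for Ccr7 with the replicate block (adjusted p = 0.0748) and without any 1 of LSK 540, LSK 815 and LSK 768 (adjusted p from 0.0602 to 0.0699), for Cd83 with the replicate block (adjusted p = 0.131) and without any 1 of LSK 540, LSK 768 and CD11b+ 640 (adjusted p from 0.0583 to 0.0622) and for Irf4 with library size alone (adjusted p = 0.141), with the replicate block (adjusted p = 0.0632) and without any 1 of LSK 540, CD11b+ 540, CD11b+ 815 and LSK 768 (adjusted p from 0.0514 to 0.134). The fall was in Xcr1, a chemokine receptor of these cells (−3.88). Of 10 genes of class II presentation only H2-DMb2 was called, at 2.62 and a call lost with library size alone (adjusted p = 0.0656) and without any 1 of LSK 540, CD11b+ 540, LSK 815 and LSK 768 (adjusted p from 0.0606 to 0.093). The median over the list was 0.76 (0 higher and 0 lower without CD11b+ 540, 1 and 1 with a median of 0.04 without CD11b+ 640), and the 1 call stands beside 14.4% higher of all genes tested. Cd74, the invariant chain, had 10.45, 10.84 and 11.24 in the CD11b+ libraries and 9.43, 10.01 and 8.95 in the LSK libraries (log2 fold change 1.35, SE 0.62, adjusted p = 0.114).

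Genes of phagocyte receptors and of the oxidative burst rose. All 14 genes tested of Fc receptors and their adaptors rose, beside 14.4% higher of all genes tested, at a median of 3.28. Siglece, an inhibitory lectin of myeloid cells, had 7.59, 8.09 and 7.27 in the CD11b+ libraries and 2.29, 2.90 and 3.27 in the LSK libraries (log2 fold change 4.82, SE 0.40, adjusted p = 7.32e-06). Fcer1g, the common signaling chain of Fc receptors, rose by 3.20, and Fcgr4 by 3.35. The paired immunoglobulin-like receptor genes Cd300lf, Pilrb1 and Pirb rose by 4.95, 4.36 and 4.32. Without CD11b+ 540, 13 of the 14 were called higher. Of 7 NADPH oxidase genes 6 rose (5 higher and 0 lower without CD11b+ 540), at a median of 2.62. Cyba, the small membrane subunit, had 10.90, 11.42 and 9.24 in the CD11b+ libraries and 6.46, 6.64 and 6.42 in the LSK libraries (log2 fold change 4.26, SE 0.63, adjusted p = 2.86e-04), Cybb, the catalytic subunit, rose by 3.28 and the cytosolic subunit genes Ncf1 and Ncf4 by 3.21 and 2.62.

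Of 24 pattern recognition receptor genes, 10 rose and 2 fell (median 1.53, 9 higher and 1 lower without CD11b+ 540, 9 and 3 with a median of 0.90 without CD11b+ 640, 8 and 1 with the replicate block). Of all genes tested 14.4% were higher and 12.7% lower, so that falls were no more frequent in this list than over all genes. Clec7a, the receptor for fungal glucans, rose by 3.60, Tlr2 by 2.90 and Tlr13 by 2.68, whereas Tlr4 was not called (log2 fold change 0.86, SE 0.50, adjusted p = 0.2). Of 22 inflammatory cytokine and decoy genes 15 rose (12 higher and 0 lower without CD11b+ 540, 13 and 1 with a median of 3.41 without CD11b+ 640, 11 and 1 with the replicate block), at a median of 3.43, or 3.24 with 1 gene set at its bound. Il1b had 8.02, 8.11 and 7.26 in the CD11b+ libraries and 1.26, 2.96 and 1.80 in the LSK libraries (log2 fold change 5.66, SE 0.96, adjusted p = 8.08e-04). Cxcl2, which attracts neutrophils, had 7.06, 4.23 and 7.61 in the CD11b+ libraries and −0.70, −0.24 and −2.71 in the LSK libraries (log2 fold change 7.82, SE 1.45, adjusted p = 0.00143), with CD11b+ 815 the lowest CD11b+ library. The chemokine gene Ccl6 rose by 4.43 and Osm, which encodes oncostatin M, by 3.63. Tnf rose by 3.09, a call lost with the replicate block (adjusted p = 0.0629). Il6 was not called (log2 fold change 1.36, SE 0.99, adjusted p = 0.31). Among genes for homing and adhesion, 9 of 20 rose and 2 fell, beside the same shares of all genes tested (median 1.33, 8 higher and 0 lower without CD11b+ 540). Itgam, which encodes the protein used to isolate CD11b+ cells, was among the rises. The rises were led by C5ar1, the receptor of complement fragment C5a, with 7.81, 7.76 and 7.15 in the CD11b+ libraries and 0.60, 2.07 and 1.31 in the LSK libraries (log2 fold change 6.17, SE 0.66, adjusted p = 2.75e-05), and by Ccr1 (3.90).

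Some rapidly induced genes rose, and the number called depended on the replicate block and, for the NF-kB pathway, on CD11b+ 640 and on the scaling. Of 17 NF-kB genes 9 rose and none fell, beside 14.4% higher and 12.7% lower of all genes tested (median 1.18, 9 higher and 0 lower without CD11b+ 540, 5 and 2 with a median of 0.56 without CD11b+ 640). With the replicate block 1 of the 17 was called. With library size alone 4 were called higher and none lower, at a median of 0.74. Tnfaip3, which encodes the inhibitor A20, had 6.53, 4.74 and 9.80 in the CD11b+ libraries and 4.78, 5.57 and 4.27 in the LSK libraries, so that the groups overlapped and 1 library held the difference. Its call (log2 fold change 3.42, SE 0.95, adjusted p = 0.0156) was lost with the replicate block (adjusted p = 0.44) and without any 1 of LSK 540, LSK 768 and CD11b+ 640 (adjusted p from 0.0613 to 0.253). Nfkbia, the gene of the inhibitor IkB-alpha, had 8.25, 7.89 and 9.52 in the CD11b+ libraries and 5.80, 5.92 and 5.24 in the LSK libraries (log2 fold change 3.05, SE 0.72, adjusted p = 0.00689), with an adjusted p of 0.0634 with the replicate block. Relb, a subunit of the factor, rose by 2.18, and Nfkbiz by 2.76, the latter a call lost with library size alone (adjusted p = 0.0576), with the replicate block (adjusted p = 0.275) and without any 1 of LSK 540, LSK 768 and CD11b+ 640 (adjusted p from 0.0925 to 0.129). Of 19 immediate-early genes 11 rose and none fell, beside the same shares of all genes tested (median 2.23, 10 higher and 0 lower without CD11b+ 540, 10 higher without CD11b+ 640). With the replicate block 7 of the 19 were called higher and 1 lower. Junb had 10.17, 10.86 and 10.10 in the CD11b+ libraries and 7.26, 7.31 and 6.01 in the LSK libraries (log2 fold change 3.45, SE 0.80, adjusted p = 0.00592). Atf3, a stress-induced factor, rose by 4.38 and Nr4a1 by 2.83, neither of which was called with the replicate block (adjusted p = 0.0554 and 0.0639). Ier5 rose by 2.91. Fos, Jun and Egr1 were not called, with log2 fold changes of 0.30, −0.16 and 0.05, and each overlapped between the fractions and was lowest among the LSK libraries in animal 768. These genes respond to handling of cells within minutes, and the part of the isolation in these differences was not tested.

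Ptpn11 (ENSMUSG00000043733, chr5:121130533-121191397, minus strand on mm10) was lower in every CD11b+ library than in any LSK library. Its levels were 5.97, 4.72 and 6.89 in CD11b+ cells and 7.26, 7.13 and 7.25 in LSK cells, so the LSK libraries lay close together while the CD11b+ libraries spread over more than 2 log2 units. The difference of means was −1.35, with a two-sided exact permutation p of 0.1, the smallest that 3 against 3 libraries allow. In the fit over all genes the log2 fold change was −1.10 (SE 0.48, adjusted p = 0.0948), which was not called. It was called with the replicate block (adjusted p = 0.00568), by limma-voom (adjusted p = 0.0442) and without CD11b+ 640 (adjusted p = 0.013). The counts do not separate the mutant from the normal allele.

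Components of the RAS pathway moved in a few members. Of 33 genes for SHP2, RAS and MAPK components 9 rose and 1 fell, beside 14.4% higher and 12.7% lower of all genes tested (8 higher and 0 lower without CD11b+ 540, 9 and 6 with a median of 0.05 without CD11b+ 640, 9 and 5 with the replicate block, 10 and 2 by DESeq2). The median of 0.18 turned to −0.39 with library size alone, where 6 were higher and 4 lower. Rasgrp4, an activator of RAS in myeloid cells, had 8.08, 7.44 and 6.54 in the CD11b+ libraries and 2.84, 4.52 and 3.52 in the LSK libraries (log2 fold change 3.69, SE 0.54, adjusted p = 2.71e-04). Mapk3, which encodes ERK1, had 9.21, 9.86 and 7.71 in the CD11b+ libraries and 6.26, 6.41 and 6.38 in the LSK libraries (log2 fold change 2.82, SE 0.43, adjusted p = 3.61e-04), and in it CD11b+ 640 lay lowest of the CD11b+ libraries. Ptpn6, the gene of the related phosphatase SHP1, rose by 2.16 (SE 0.32, adjusted p = 3.04e-04). Rras, a RAS-related GTPase gene, rose by 2.37. Nras was not called (log2 fold change 0.93, SE 0.35, adjusted p = 0.0612) but was called by DESeq2 (adjusted p = 0.0448), with the replicate block (adjusted p = 0.0222) and without CD11b+ 640 (adjusted p = 0.00925).

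Transcripts that follow ERK activity did not move together. Of 18, 3 rose and 3 fell (2 higher and 2 lower without CD11b+ 540, 3 and 7 with a median of −0.81 without CD11b+ 640, 3 and 5 with the replicate block, 5 and 4 by DESeq2), at a median of 0.01, which was −0.40 with library size alone and −0.92 with the replicate block. Over all genes tested 14.4% were higher and 12.7% lower. Myc had 8.14, 8.41 and 8.42 in LSK cells and 4.65, 3.19 and 5.38 in CD11b+ cells (log2 fold change −3.67, SE 0.49, adjusted p = 1.16e-04), and Ccnd1 (cyclin D1) fell by 2.44. Dusp6, which encodes a phosphatase of ERK, had 7.60, 8.87 and 7.0 in the CD11b+ libraries and 6.61, 6.48 and 5.99 in the LSK libraries (log2 fold change 1.66, SE 0.46, adjusted p = 0.0151), a call lost with library size alone (adjusted p = 0.0854) and without CD11b+ 815 (adjusted p = 0.105) or LSK 768 (0.0662). Dusp5 rose by 2.0, a call lost with library size alone (adjusted p = 0.123) and without any 1 of LSK 540, CD11b+ 540, LSK 815, CD11b+ 815 and LSK 768 (adjusted p from 0.0545 to 0.152).

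Among 21 growth factor receptor genes 4 rose and 3 fell (median 0.72, 4 higher and 3 lower without CD11b+ 540, 5 and 3 with a median of 0.16 without CD11b+ 640). Among the falls were the progenitor receptor gene Flt3 given above and Kit, whose direction the sort set, and the background over all genes tested was 14.4% higher and 12.7% lower. Ifngr2, a chain of the interferon gamma receptor, had 6.85, 7.73 and 6.30 in the CD11b+ libraries and 4.37, 5.09 and 4.77 in the LSK libraries (log2 fold change 2.31, SE 0.43, adjusted p = 0.00152). Il3ra rose by 2.10, a call lost without LSK 540 (adjusted p = 0.0574) or CD11b+ 815 (0.0781). The receptors of granulocyte-macrophage colony-stimulating factor, to which cells of this disease are known to be hypersensitive, were not called, with 1.33 (SE 0.76, adjusted p = 0.196) for Csf2ra and 0.72 (SE 0.48, adjusted p = 0.27) for Csf2rb. Csf2ra ranged from 4.25 to 8.68 among the CD11b+ libraries and was called higher without CD11b+ 815 (adjusted p = 0.0418). Csf3r, the receptor of granulocyte colony-stimulating factor, had 1.41 (SE 0.61, adjusted p = 0.0963) and was called without CD11b+ 640 (adjusted p = 0.0314). Beside the same background, 4 of 19 JAK, STAT and SOCS genes rose and 4 fell (median −0.31, 2 higher and 4 lower without CD11b+ 540, 3 and 7 with a median of −0.53 without CD11b+ 640). With library size alone 1 of the 19 was higher and 8 were lower, at a median of −0.81. The replicate block gave 3 higher and 6 lower and DESeq2 4 and 6. Stat5a fell, from 7.04, 6.69 and 6.92 to 4.81, 4.08 and 5.53 (log2 fold change −1.96, SE 0.32, adjusted p = 5.46e-04), and Socs5 fell by 2.19. Socs3 had 5.91, 3.33 and 8.50 in the CD11b+ libraries and 2.82, 4.0 and 2.56 in the LSK libraries, which overlapped, and its call at 3.90 was lost with the replicate block (adjusted p = 0.275) and without any 1 of LSK 540, LSK 768 and CD11b+ 640 (adjusted p from 0.0551 to 0.0825).

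The BCL-2 family was examined gene by gene because the study concerns how this family sets survival in each cell type. Of 17 family genes tested, 9 rose and 1 fell, beside 14.4% higher and 12.7% lower of all genes tested. Their median was 1.02, and Bcl2l10 and Hrk were not tested. Among the anti-apoptotic members 5 of 7 rose and 1 fell (median 3.18, 5 higher and 1 lower without CD11b+ 540, 5 and 2 with a median of 2.71 without CD11b+ 640, 5 and 2 with the replicate block). Bcl2l1, which encodes BCL-XL (chr2:152780668-152831728, minus strand), had 8.09, 8.59 and 6.04 in the CD11b+ libraries and 4.77, 4.89 and 4.53 in the LSK libraries (log2 fold change 3.18, SE 0.58, adjusted p = 0.00134), and CD11b+ 640 lay 2 to 3 log2 units below the others. Mcl1 had 9.64, 9.44 and 9.42 in the CD11b+ libraries and 7.42, 7.96 and 7.20 in the LSK libraries (log2 fold change 1.94, SE 0.40, adjusted p = 0.00289) and the tightest CD11b+ group of these genes. Bcl2 moved the other way, with 6.27, 6.39 and 6.52 in LSK cells and 4.28, 4.44 and 4.89 in CD11b+ cells (log2 fold change −1.83, SE 0.38, adjusted p = 0.00302). Bcl2a1a, Bcl2a1b and Bcl2a1d, near-identical copies of the A1 gene between which reads may be split, rose by 3.93, 4.12 and 3.32. Each copy counts as 1 gene in the 5 of 7 and in the 9 of 17, so that A1 weighs on both counts and on their medians. Bcl2l2 was not called (log2 fold change −0.76, SE 0.50, adjusted p = 0.26) but was called with the replicate block (adjusted p = 0.0485) and without CD11b+ 640 (adjusted p = 0.012).

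Per length of exon, Mcl1 had 212 CPM per kb in CD11b+ cells and 55.3 in LSK cells, Bcl2l1 had 52.7 CPM per kb in CD11b+ cells and 5.82 in LSK cells and Bcl2 had 2.58 CPM per kb in CD11b+ cells and 9.19 in LSK cells. In CD11b+ cells Bcl2 was thus the lowest of the 3 by mean level and Mcl1 the highest, while in LSK cells Bcl2l1 was the lowest and Mcl1 again the highest.

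Of 7 BH3-only genes tested 3 rose and none fell, beside 14.4% higher of all genes tested (median 0.98, 2 higher and 0 lower without CD11b+ 540). Pmaip1, which encodes NOXA, had 6.56, 6.29 and 7.27 in the CD11b+ libraries and 2.73, 3.97 and 3.26 in the LSK libraries (log2 fold change 3.36, SE 0.74, adjusted p = 0.00466), and Bbc3, which encodes PUMA, rose by 2.28 (SE 0.42, adjusted p = 0.00145). Bad rose by 0.98, a call lost with library size alone (adjusted p = 0.283) and without CD11b+ 540 (adjusted p = 0.0744) or LSK 768 (0.0561). Bik had at most 40 counts in a library and was not called (log2 fold change 1.56, SE 0.89, adjusted p = 0.193). Bcl2l11 (BIM), Bid and Bmf were not called, with log2 fold changes of 0.72, 0.09 and 0.77, though Bmf was called without LSK 815 (adjusted p = 0.0421). Of the effectors, Bax had 6.64, 6.17 and 6.38 in the CD11b+ libraries and 5.44, 5.37 and 5.36 in the LSK libraries (log2 fold change 1.02, SE 0.26, adjusted p = 0.0102) and lost its call with library size alone (adjusted p = 0.213), and Bak1 was not called (log2 fold change 0.70, SE 0.30, adjusted p = 0.0912) but was called with the replicate block (adjusted p = 0.0475) and by DESeq2 (adjusted p = 0.032). Bok had −0.21 (SE 0.81, adjusted p = 0.868).

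**Figure D2:**
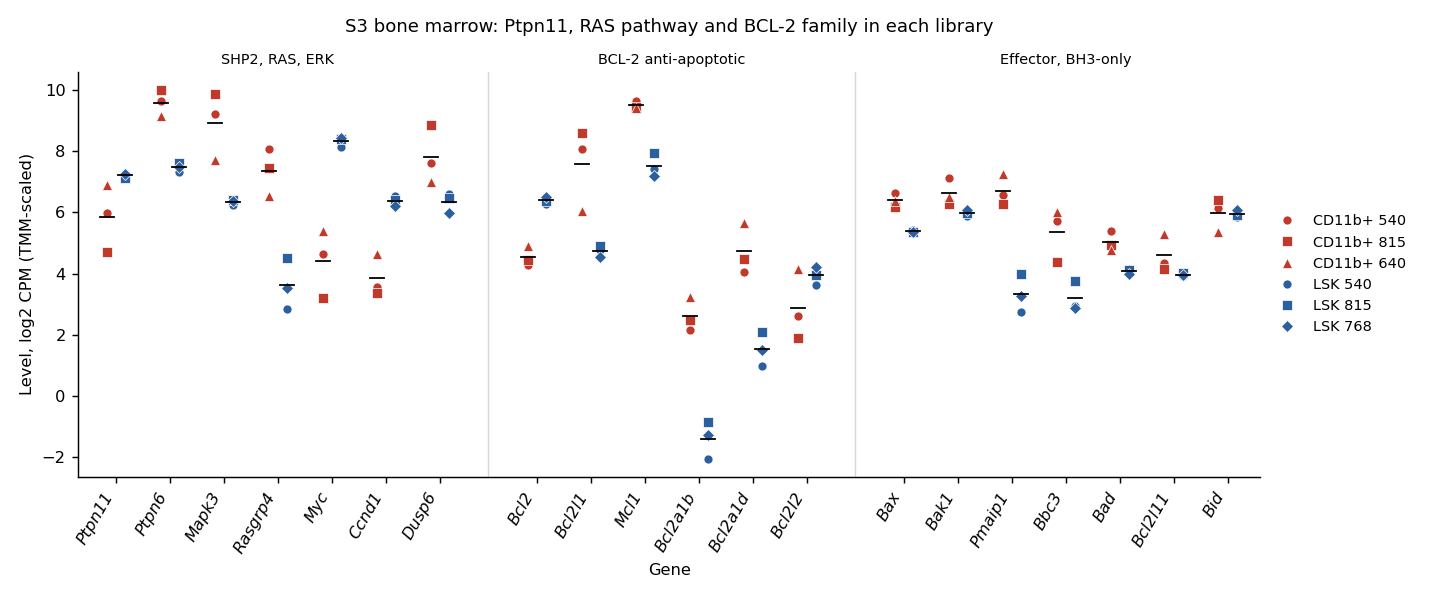
Levels of Ptpn11, RAS pathway and BCL-2 family genes (log2 CPM, y axis) in each of the 6 libraries, with CD11b+ libraries in red, LSK libraries in blue and marker shapes for animals. Bars are means of 3. Bcl2l1 and Mcl1 lie higher in every CD11b+ library, Bcl2 and Ptpn11 lie lower, and in Bcl2l1 CD11b+ 640 lies far below the other CD11b+ libraries.

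Caspases, the apoptosome and inhibitors of apoptosis moved in either direction, with 5 of 20 higher and 3 lower beside 14.4% and 12.7% of all genes tested (3 higher and 1 lower without CD11b+ 540, 5 and 6 with a median of 0.32 without CD11b+ 640, 5 and 6 with the replicate block), at a median of 0.41 that turned to −0.17 with library size alone. Birc5 (survivin) had 9.29, 10.72 and 6.23 in the CD11b+ libraries and 6.24, 6.18 and 6.32 in the LSK libraries (log2 fold change 3.38, SE 0.82, adjusted p = 0.00747), with CD11b+ 640 inside the LSK range. Casp2 fell by 1.56, a call lost without any 1 of LSK 540, CD11b+ 540, LSK 815, CD11b+ 815 and LSK 768 (adjusted p from 0.0639 to 0.117), and Birc3 rose by 1.32, a call lost with library size alone (adjusted p = 0.146), with the replicate block (adjusted p = 0.0945) and without LSK 540 (adjusted p = 0.0703) or CD11b+ 640 (0.0665). In a list of 12 genes that holds p53 targets and Trp53, 5 rose and 2 fell, beside 14.4% and 12.7% of all genes tested (median 0.50, 5 higher and 2 lower without CD11b+ 540, 4 and 3 with a median of 0.30 without CD11b+ 640, 3 and 3 with the replicate block, and a median of −0.05 with library size alone). Aen, a nuclease gene induced by p53, fell by 1.90. Trp53 itself, the other of the 2 falls, went from 7.96, 7.73 and 7.85 to 6.05, 3.61 and 6.14 (log2 fold change −2.21, SE 0.52, adjusted p = 0.00626). Cdkn1a, which encodes p21, rose by 1.87 (SE 0.42, adjusted p = 0.00476), with an adjusted p of 0.0689 with the replicate block.

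Few cell cycle genes were called. Of 26 S phase genes none rose and 3 fell, beside 12.7% lower of all genes tested (median −0.59, 0 higher and 1 lower without CD11b+ 540, 2 and 2 with a median of −0.44 without CD11b+ 640). With library size alone 7 of the 26 were lower, at a median of −1.24, beside 4236 of all 19555 genes tested. The summed level of the S phase list did not overlap, at 3125, 2278 and 2539 CPM in the CD11b+ and 6326, 5697 and 6119 CPM in the LSK libraries, nor did its mean level, at 6.50, 5.74 and 5.70 against 6.84, 6.65 and 6.71 log2 CPM. The 3 included the polymerase genes Pola1 (log2 fold change −1.74, SE 0.46, adjusted p = 0.0126) and Pole (−2.43, a call lost without any 1 of LSK 540, CD11b+ 540, LSK 815, CD11b+ 815 and LSK 768 (adjusted p from 0.06 to 0.11)). The uracil glycosylase gene Ung fell by 1.28, a call lost with the replicate block (adjusted p = 0.0889) and without any 1 of LSK 540, CD11b+ 540, LSK 815, LSK 768 and CD11b+ 640 (adjusted p from 0.0697 to 0.0827). Of 26 genes of mitosis 3 rose and none fell, beside 14.4% higher of all genes tested (median −0.01, 2 higher and 0 lower without CD11b+ 540, 5 and 0 with a median of 0.32 without CD11b+ 640, 3 and 1 with the replicate block, of either sign among the alternatives). Besides Birc5 these were Ube2c, an ubiquitin carrier of mitotic exit, and Hmgb2 (1.15, a call lost with library size alone (adjusted p = 0.341) and without any 1 of LSK 540, CD11b+ 540, LSK 815, CD11b+ 815 and LSK 768 (adjusted p from 0.103 to 0.183)). Ube2c had 9.33, 10.36 and 6.23 in the CD11b+ libraries and 6.42, 6.28 and 6.46 in the LSK libraries (log2 fold change 3.01, SE 0.77, adjusted p = 0.0106), so that CD11b+ 540 and 815 lay far above every LSK library and CD11b+ 640 just below them, and the call was lost without CD11b+ 815 (adjusted p = 0.0571). The mean level of the mitosis list was 7.36, 6.77 and 5.96 in the CD11b+ libraries against 6.68, 6.57 and 6.73 in the LSK libraries.

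Regulators of entry into the cycle moved in both directions. Of 17 genes of CDKs, their inhibitors and the RB family, 4 rose and 5 fell, beside 14.4% and 12.7% of all genes tested (4 higher and 3 lower without CD11b+ 540), at a median of 0.59 that was −0.05 with library size alone. Cdk6 had 8.46, 8.46 and 8.76 in LSK cells and 4.94, 5.08 and 6.55 in CD11b+ cells (log2 fold change −2.84, SE 0.55, adjusted p = 0.00194). Cdkn2d, which encodes the CDK4 and CDK6 inhibitor p19, went the other way, with 4.45, 4.84 and 4.79 against 8.29, 8.15 and 6.88 (log2 fold change 3.20, SE 0.50, adjusted p = 4.14e-04). Neither gene overlapped between the fractions.

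Genes of RNA polymerase I and ribosome biogenesis fell as a group. Of 18, 16 fell and none rose, at a median of −1.48, and 15 fell without CD11b+ 540. Polr1b, a core subunit of the polymerase, had 6.58, 6.38 and 6.40 in LSK cells and 3.17, 1.98 and 4.52 in CD11b+ cells (log2 fold change −2.87, SE 0.54, adjusted p = 0.00162). Dkc1, which encodes the pseudouridine synthase dyskerin, fell by 2.22, Nop58 by 2.05 and Gnl3 (nucleostemin) by 1.99. Of 17 epigenetic regulators 6 fell and 1 rose, beside 12.7% lower and 14.4% higher of all genes tested (median −0.85, 0 higher and 4 lower without CD11b+ 540, 1 and 8 with a median of −1.55 without CD11b+ 640). The methyltransferase gene Dnmt3b had 6.31, 6.08 and 5.85 against 1.46, 1.68 and 2.66 (log2 fold change −4.06, SE 0.79, adjusted p = 0.00194) and Phf6 fell by 1.71. Tet3 and Dnmt1 were called lower at −1.37 and −2.22. These calls were lost for Tet3 without any 1 of LSK 540, CD11b+ 540, LSK 815, CD11b+ 815 and LSK 768 (adjusted p from 0.0653 to 0.12) and for Dnmt1 without any 1 of LSK 540, CD11b+ 540, LSK 815, CD11b+ 815 and LSK 768 (adjusted p from 0.0859 to 0.154).

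**Figure D3:**
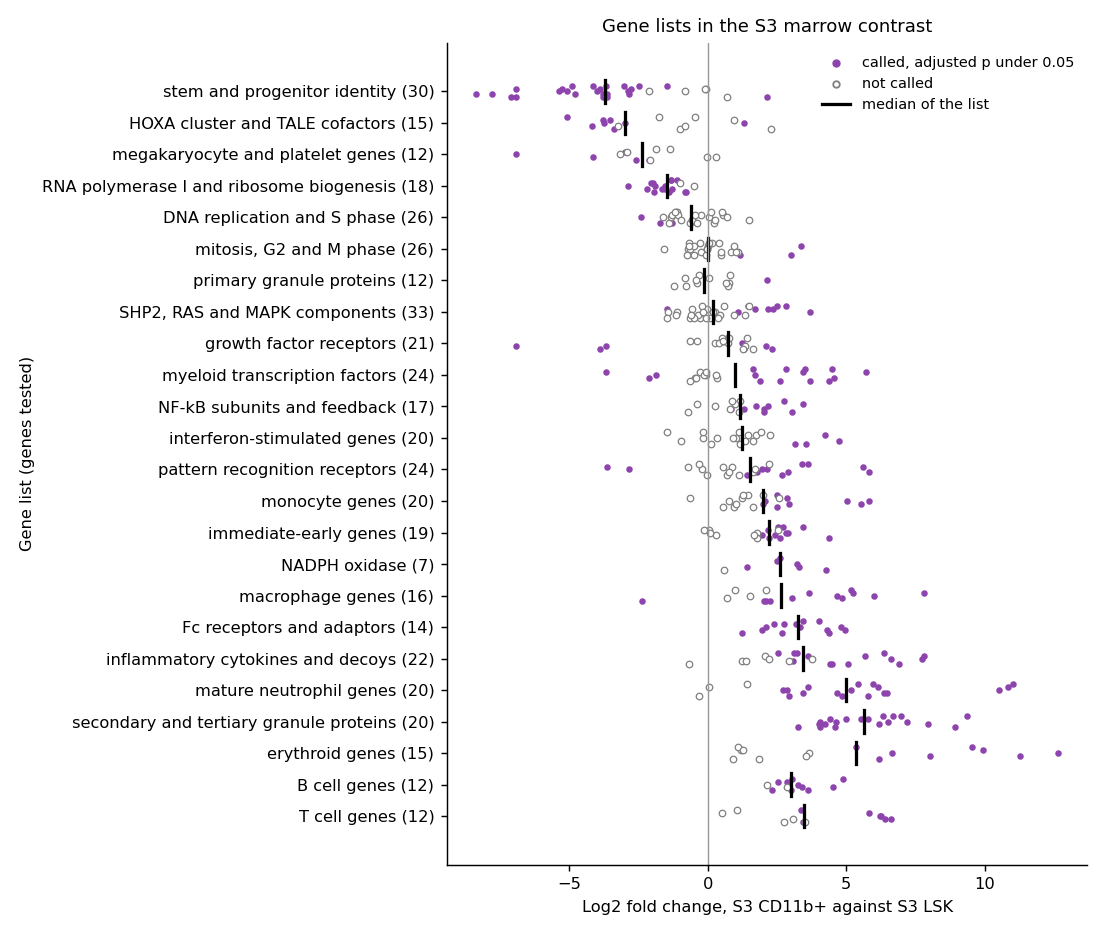
Log2 fold changes of S3 CD11b+ against S3 LSK (x axis) for the genes of 24 lists (y axis, number tested in brackets). Filled points are called genes, open points are not called and bars are list medians. The medians of the stem and ribosome biogenesis lists lie left of 0 and those of the secondary granule and neutrophil lists right of it. Genes of the S phase and mitosis lists lie on both sides of 0, with list medians of −0.59 and −0.01.

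Transcripts of other cell types were present in the CD11b+ fraction, and their part in the differences was not tested. LSK cells had been depleted of lineage-positive cells, a step that removes mature blood cells and bears on the direction of the erythroid, B cell, T cell and granulocyte markers, Ly6g included. Of 15 erythroid genes 8 rose and none fell (median 5.35, 7 higher and 0 lower without CD11b+ 540). Hba-a2 had the largest rise among the genes that met the naming rule, from 2.10, 0.85 and 1.57 in LSK cells to 13.75, 15.39 and 10.87 in CD11b+ cells (log2 fold change 12.67, SE 1.37, adjusted p = 3.13e-05). Hbb-bs had 14.45, 13.80 and 12.68 in the CD11b+ libraries and 4.47, 3.17 and 3.62 in the LSK libraries (log2 fold change 9.96, SE 0.98, adjusted p = 1.67e-05), and Hba-a1, Hbb-bt and Alas2, which encodes the first enzyme of heme synthesis in red cells, rose by 11.27, 9.55 and 8.05. The summed level of the list was 56442, 94837 and 17658 CPM in the CD11b+ libraries and 628, 352 and 495 CPM in the LSK libraries. Leaving globin and immunoglobulin genes out of the table, 409 in all, gave 5310 calls.

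Of 12 B cell genes 10 rose and none fell (median 3.02, 6 higher and 0 lower without CD11b+ 540, 5 and 0 with the replicate block), with summed levels of 559, 837 and 476 CPM against 129, 152 and 81.9 CPM. Cd79b, the most abundant of them, had 7.54, 8.43 and 6.14 in the CD11b+ libraries and 4.65, 4.77 and 4.40 in the LSK libraries (log2 fold change 3.03, SE 0.63, adjusted p = 0.00303). The B cell adaptor gene Blnk rose by 3.0 and the B cell factor gene Pax5 by 2.86, the latter a call lost with the replicate block (adjusted p = 0.0567) and without LSK 815 (adjusted p = 0.0508) or LSK 768 (0.0704). Of 12 T cell genes 7 rose (median 3.47, 7 higher and 0 lower without CD11b+ 540), with sums of 107, 129 and 360 CPM against 47.2, 48.9 and 42.7 CPM, highest in CD11b+ 640. Cd3e had counts of 290, 116 and 2003 in the CD11b+ and 20, 18 and 16 in the LSK libraries (log2 fold change 6.22, SE 1.41, adjusted p = 0.00539). None of 10 natural killer cell genes was called by edgeR (median 1.26, 1 higher and 0 lower without CD11b+ 540, 3 and 0 by DESeq2, most abundant gene Klrk1).

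Immunoglobulin genes lay in the other direction, at 3.29%, 4.0% and 1.32% of the counts of the LSK libraries and 0.393%, 0.669% and 0.806% of the CD11b+ libraries. By the mean of the libraries, only Eef1a1 was more abundant in LSK cells than Ighm and Igkc. Ighm fell by 2.55, a call lost without LSK 540 (adjusted p = 0.0649) or CD11b+ 540 (0.0555), and Igkc was not called (log2 fold change −1.25, SE 0.84, adjusted p = 0.273). The variable segments Ighv6-3 and Ighv1-18 fell by 5.20 and 5.13, the former with an adjusted p of 0.0511 with the replicate block. Ighv1-15 was at 8.96, 4.54 and 4.15 in LSK cells, highest in animal 540, and its call at −6.09 was lost with the replicate block (adjusted p = 0.0746) and without any 1 of LSK 540, CD11b+ 540, CD11b+ 815 and CD11b+ 640 (adjusted p from 0.0649 to 0.226). None of 6 plasma cell genes was called (median −0.22, 0 higher and 0 lower without CD11b+ 540, 0 and 0 with a median of −0.56 without CD11b+ 640), and Jchain, the most abundant, had 7.02, 9.42 and 7.36 in the CD11b+ libraries and 9.31, 9.85 and 8.40 in the LSK libraries (log2 fold change −0.95, SE 0.92, adjusted p = 0.447).

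Megakaryocyte and platelet genes fell in 5 of 12 cases without a rise (median −2.37, 0 higher and 3 lower without CD11b+ 540, 0 and 3 with the replicate block), with sums of 92.9, 162 and 59.2 CPM in CD11b+ and 808, 607 and 792 CPM in LSK cells. Pf4 had 2.19, 4.09 and 0.82 in the CD11b+ libraries and 6.17, 5.26 and 6.25 in the LSK libraries, and its call was lost with the replicate block (adjusted p = 0.133) and without any 1 of LSK 540, CD11b+ 540, LSK 815, LSK 768 and CD11b+ 640 (adjusted p from 0.0512 to 0.115). Of 14 eosinophil, basophil and mast cell genes 3 rose and 2 fell (median −0.45, 2 higher and 3 lower without CD11b+ 540, 4 and 1 with a median of −0.06 without CD11b+ 640, 4 and 1 with the replicate block, 4 and 4 by DESeq2), beside 14.4% and 12.7% of all genes. Their median was 0.01 with the replicate block and 0.22 where each of the compared libraries had to hold 10 counts of a gene. Prg2, the major basic protein of eosinophils, had 10.95, 11.38 and 9.59 in the CD11b+ libraries and 7.97, 7.54 and 7.83 in the LSK libraries (log2 fold change 3.03, SE 0.64, adjusted p = 0.00348), and Prg3, its homolog, rose by 2.70, a call lost without LSK 815 (adjusted p = 0.0543) or CD11b+ 815 (0.0517). Cpa3, a mast cell protease, fell by 3.28 and Ms4a2, a chain of the IgE receptor, by 3.55, the latter a call lost with the replicate block (adjusted p = 0.0584) and without any 1 of LSK 540, CD11b+ 815, LSK 768 and CD11b+ 640 (adjusted p from 0.0503 to 0.0867). Of 12 stromal and endothelial genes 1 rose and 2 fell, beside 14.4% and 12.7% of all genes (median 1.79, 1 higher and 2 lower without CD11b+ 540, 1 and 3 with a median of 0.18 without CD11b+ 640, 0 and 2 with the replicate block, 3 and 2 by DESeq2, summed level 42.6, 81.2 and 309 CPM against 250, 295 and 313 CPM). The rise was in Col1a1, a collagen chain, with counts of 118, 7 and 2515 and 59, 36 and 59, which was lost with the replicate block (adjusted p = 0.324) and without LSK 540 (adjusted p = 0.0501) or CD11b+ 640 (0.126).

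**Figure D4:**
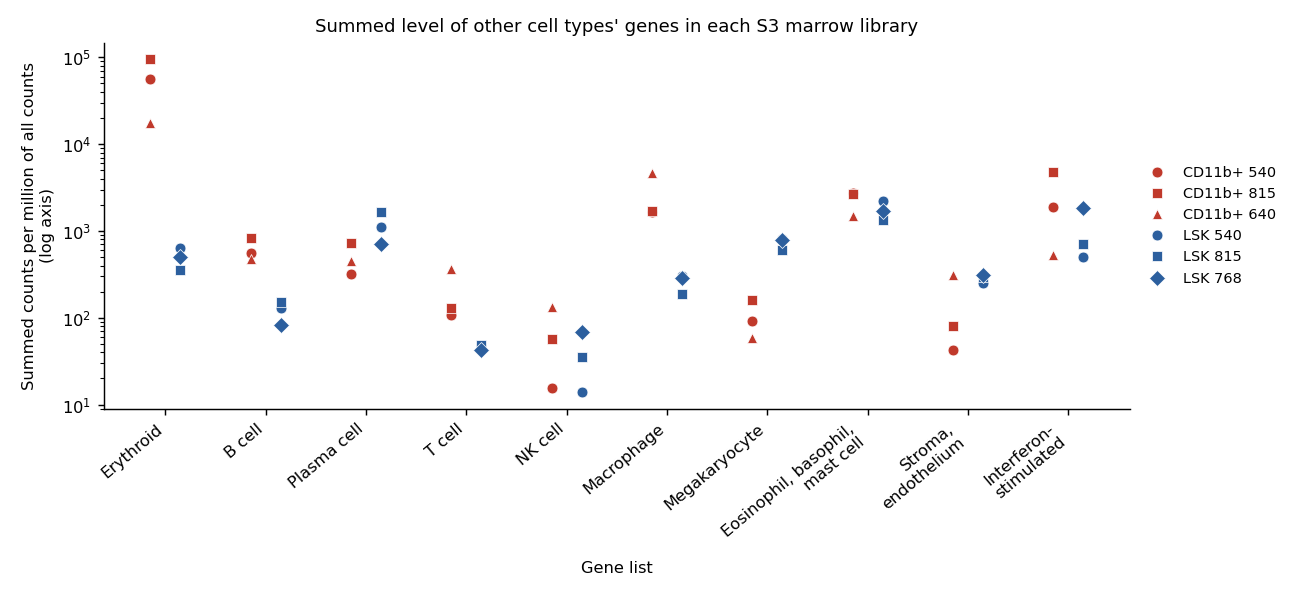
Summed levels of the marker lists of other cell types (CPM on a log10 axis) in each of the 6 libraries of S3 marrow. Erythroid, B cell and T cell sums are higher in all 3 CD11b+ libraries, megakaryocyte sums are higher in all 3 LSK libraries, plasma cell and stromal sums overlap, and CD11b+ 640 has the lowest erythroid and the highest T cell sum of the CD11b+ fraction.

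Interferon-stimulated genes varied between animals in both fractions. Of 20, 4 rose and none fell (median 1.25, 4 higher and 0 lower without CD11b+ 540, 11 and 0 with a median of 1.77 without CD11b+ 640, 7 and 1 by DESeq2), beside 14.4% higher of all genes tested, and 14 were called higher with the replicate block (median 2.46). With library size alone 2 were higher and 1 lower. Mx1, an antiviral GTPase gene, was not called (log2 fold change −1.48, SE 0.64, adjusted p = 0.095) but was called lower without LSK 540 (adjusted p = 0.0363). Rsad2, which encodes the antiviral enzyme viperin, had 8.58, 9.99 and 4.93 in the CD11b+ libraries and 2.77, 3.33 and 5.19 in the LSK libraries (log2 fold change 4.75, SE 0.95, adjusted p = 0.00247), and Isg15 had 8.66, 9.31 and 4.64 in the CD11b+ libraries and 2.88, 3.35 and 5.28 in the LSK libraries (log2 fold change 4.24, SE 0.96, adjusted p = 0.00544). In both genes CD11b+ 640 was lowest of its fraction and LSK 768 highest of its own, so that these overlapped. Between the libraries labelled with animal 540, and between those labelled 815, the CD11b+ library was higher. Because CD11b+ 540 held RNA of both sexes, the libraries labelled 540 may not be from the same animal. Bst2 and Ifit3 rose by 3.54 and 3.15. They lost their calls, Bst2 with library size alone (adjusted p = 0.0662) and without any 1 of LSK 540, LSK 815, CD11b+ 815 and LSK 768 (adjusted p from 0.0665 to 0.501) and Ifit3 with library size alone (adjusted p = 0.0832) and without any 1 of LSK 540, LSK 815 and CD11b+ 815 (adjusted p from 0.119 to 0.419). Bst2, at 7.89, 11.14 and 4.99, was also among the genes with the largest range in the CD11b+ fraction.

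The largest ranges among CD11b+ libraries also included Pltp, which encodes a phospholipid transfer protein, at 6.17, 2.44 and 8.74, the erythroid gene Rhd at 8.41, 8.23 and 2.86, Pdzk1ip1 at 7.21, 7.72 and 1.67 and Gm10073 at 5.10, 7.91 and 2.13. Pltp was highest in animal 640 and the others lowest in it. In the LSK fraction the heat shock gene Hspa1b had the largest range, at 7.98, 6.56 and 2.20, followed by immunoglobulin variable segments, among them Igkv6-20 at 7.18, 6.31 and 2.51, Igkv1-110 at 10.16, 8.47 and 5.64 and Ighv9-3 at 2.81, 5.63 and 7.32. The first 3 of these were highest in LSK 540 and Ighv9-3 in LSK 768. Rhd (log2 fold change 4.03, SE 1.51, adjusted p = 0.058) and Hspa1b (log2 fold change −1.37, SE 1.52, adjusted p = 0.511) were not called, but Rhd was called by DESeq2 (adjusted p = 0.00599) and without CD11b+ 640 (adjusted p = 0.0208), and Hspa1b without CD11b+ 540 (adjusted p = 0.0431). Of the others, Pltp (4.23), Pdzk1ip1 (3.45) and Gm10073 (4.77) were called higher. The call was lost for Pltp with the replicate block (adjusted p = 0.261) and for Pdzk1ip1 with library size alone (adjusted p = 0.079), with the replicate block (adjusted p = 0.124) and without any 1 of LSK 540, CD11b+ 540, LSK 815, CD11b+ 815 and LSK 768 (adjusted p from 0.0715 to 0.106). The call of Gm10073 was lost without any 1 of LSK 540, LSK 815, CD11b+ 815 and LSK 768 (adjusted p from 0.0506 to 0.111). Igkv6-20 (−4.72), Igkv1-110 (−3.91) and Ighv9-3 (−2.99) were called lower. Igkv6-20 lost the call without any 1 of LSK 540, CD11b+ 540 and CD11b+ 815 (adjusted p from 0.055 to 0.0663) and Igkv1-110 without any 1 of LSK 540, CD11b+ 540 and CD11b+ 815 (adjusted p from 0.0543 to 0.11). Ighv9-3 lost it with the replicate block (adjusted p = 0.534) and without any 1 of CD11b+ 540, LSK 815, CD11b+ 815 and LSK 768 (adjusted p from 0.0563 to 0.239). By mean, the most abundant genes of LSK cells besides Ighm, Igkc and Mpo were the elongation factors Eef1a1 and Eef2, which were not called, at −1.13 (SE 0.46, adjusted p = 0.075) and −0.64 (SE 0.33, adjusted p = 0.15). Both were called lower with library size alone (adjusted p = 0.0271 and 0.0275) and Eef1a1 with the replicate block (adjusted p = 0.0302) and without CD11b+ 640 (adjusted p = 0.0163). Among CD11b+ cells, Actb rose by 3.17 (SE 0.60, adjusted p = 0.00168).

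The same contrast in the marrow of MxCre mice called 7221 genes (36.9%), with 3251 (16.6%) higher and 3970 (20.3%) lower, on 2 libraries a fraction. No library is shared with the S3 contrast. Of the genes higher in S3 CD11b+ cells, 2182 were also higher in MxCre CD11b+ cells, which is 77.3% of the S3 list and 67.1% of the MxCre list. Of the lower genes 1975 were shared, 79.7% and 49.7% of each list. Opposite calls were made for 4 genes. When the difference of the contrasts was itself tested, edgeR's quasi-likelihood test called 0 genes at a Benjamini-Hochberg adjusted p under 0.05, with 1587 genes at an unadjusted p under 0.05. DESeq2 called 141 (108 higher and 33 lower), limma-voom called 4, and edgeR called 438 without MxCre CD11b+ replicate 2, the library with RNA of both sexes, and 318 without this library and CD11b+ 540. The 438 and 318 come from fits in which 1 MxCre CD11b+ library is left and is assumed to vary like the other groups. The 4 of limma-voom, Slc22a3, Areg, Tnip3 and Nlrp10, were chosen for mention after their values were seen.

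Side by side, several genes of the granule series had lower LSK levels in S3 than in MxCre mice. Mmp8 had 5.30 and 5.23 in the MxCre and −0.34, 0.47 and −0.37 in the S3 LSK libraries, while the CD11b+ levels were 9.34 and 9.48 and 9.41, 10.12 and 6.67. The log2 fold changes were 4.14 in MxCre and 9.37 in S3 mice, a difference of 5.23 (SE 1.09, adjusted p = 0.407) that was not called. Mmp9 had 6.53 and 6.51 against 1.24, 1.66 and 1.48 in LSK cells, and a difference of contrasts of 4.44 (adjusted p = 0.258). Globin genes held 0.200% and 0.107% of the MxCre LSK libraries and at most 0.00702% of the S3 LSK libraries. Their share of the Ptpn11D61Y/+ LSK libraries was 0.00586% and 0.0038%. In Ptpn11D61Y/+ mice, the LSK levels were −1.28 and −2.31 for Mmp8 and −1.48 and −1.34 for Mmp9, below those of S3 mice. For Mmp8, Mmp9 and the globin share the MxCre LSK libraries therefore stood above those of both other genotypes. The contrast within Ptpn11D61Y/+ mice called 3844 genes (19.7%), 2115 (10.8%) higher and 1729 (8.84%) lower, and its difference from the S3 contrast was called for 3 genes (0.0153%), Cd36, Fpr1 and Fpr2, whose values are given in the closing section.

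Stem cell genes had smaller contrasts in S3 mice by value. Meis1 had 6.98 and 6.99 in MxCre LSK cells and −0.18 and −1.24 in MxCre CD11b+ cells, a log2 fold change of −7.67 against −5.09 in S3 mice (difference 2.58, SE 0.69, adjusted p = 0.587). Over the list of 30, the medians were −4.80 in MxCre and −3.72 in S3 mice. For the secondary and tertiary granule genes they were 4.51 and 5.66, and for macrophage genes 5.57 and 2.65. For mature neutrophil genes the medians were 5.19 in MxCre mice, with 20 of 20 called higher, and 5.01 in S3 mice, with 17, and the median of the differences of contrasts was −0.74. For the anti-apoptotic BCL-2 genes they were 3.69 and 3.18, with Bcl2l1 at 3.76 and 3.18, Mcl1 at 1.74 and 1.94 and Bcl2 at −2.33 and −1.83. No gene in any of these lists passed the test of the difference of contrasts.

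**Figure D5:**
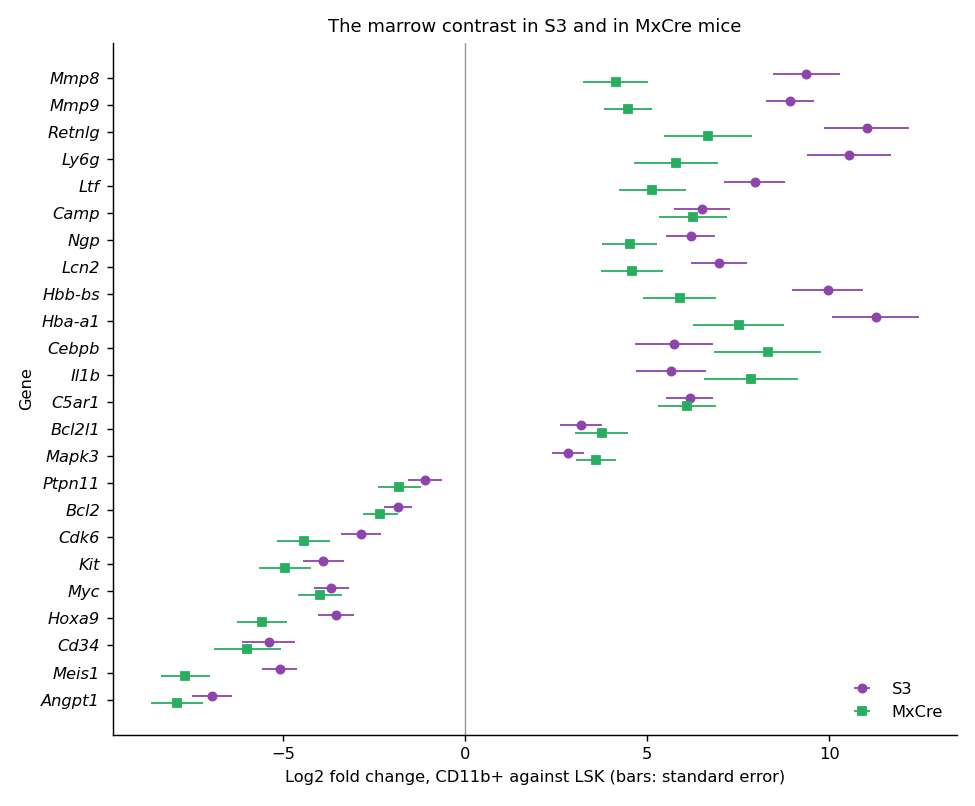
Log2 fold changes of CD11b+ against LSK cells (x axis, bars are standard errors) for 24 genes (y axis) in S3 mice (circles, 3 libraries a fraction) and in MxCre mice (squares, 2 libraries a fraction). Mmp8, Mmp9, Retnlg and Ly6g lie farther right in S3 mice, unlike the mature neutrophil list as a whole (median 5.01 in S3 and 5.19 in MxCre mice), and none of these differences was called by edgeR's test.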

How the data were processed

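RNA of the isolated LSK and CD11b+ cells was sequenced from TruSeq Stranded mRNA libraries. The deposited values are raw counts of reads per gene, 1 table a library, which the authors made from reads trimmed with Trim Galore 0.6.5 and mapped to GRCm38 (mm10) with STAR 2.5.3a. The submitters' processing notes also name bcl2fastq 2.20.0.422, FastQC 0.11.9 and limma. The counting program and its strand setting are not given in the sources used here, so that reads of genes that overlap or lie antisense to each other, such as Mpo and Prtn3 with their neighbours, may be shared.

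The counts of all 21 libraries (45706 genes, 45143 with a symbol) were filtered with filterByExpr over 9 combinations of cell type and genotype, which left 19555 genes, scaled by TMM and fitted with edgeR 4.0.16 in R 4.3.3 with 1 coefficient a combination and 12 residual degrees of freedom. Contrasts were tested with edgeR's quasi-likelihood test, and p-values were adjusted over all genes by the method of Benjamini and Hochberg. The p-values measure the spread between libraries, which for S3 are labelled with different animals within a fraction. Standard errors were taken from the fitted log2 fold change and its test statistic. DESeq2 1.42.0 and limma-voom (limma 3.58.1) were run as alternatives, with Python 3.11.15, pandas 2.3.3, SciPy 1.17.1 and matplotlib 3.10.9 for summaries and figures.

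Genes were placed in 42 lists with 691 entries, of which 683 matched a symbol in the files. The members and lists were chosen with earlier results of these data known, so list counts are descriptions. Lilrb4a and Ahsp were not matched, nor was any of the 6 histone genes listed as a sign of RNA selection, so that list has no result. Some genes that the rule below names are not reported here. Named genes were the 10 largest rises and falls whose mean level reached 3 log2 CPM, with at least 10 counts in each library of the lower fraction, no overlap and a proper symbol, up to 4 called members of each list by size with its defining members, Ptpn11, the BCL-2 family, the 5 most abundant genes and the 5 genes with the largest range in each fraction.

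Animals 540 and 815 are labelled with both cell types, so the pairing follows from the labels, although CD11b+ 540 held RNA of both sexes and its block may not join 1 animal. The deviations of their libraries from the group means correlated at 0.0723 and −0.096 over 19555 genes. The fit with a replicate block, which left 7 residual degrees of freedom, is therefore given where it changes a call. In it the control libraries were blocked by replicate number within genotype, which the labels do not tie to animals. The other alternatives were the normalization, the filter on low counts, the libraries in the fit and the removal of each library in turn. The removal of both 540 libraries, of the CD11b+ libraries with counts of both Xist and Eif2s3y, and of globin and immunoglobulin genes was chosen after seeing the data.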

Additional observations from a re-analysis of the deposited data

Results flagged for a closer look

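The contrast of CD11b+ against LSK cells differed between S3 and Ptpn11D61Y/+ mice for 3 genes, as tested in edgeR by the difference of the contrasts with p-values adjusted over all genes. This difference was tested in the main fit only, and none of the alternatives was run for it. Fpr1 and Fpr2 encode receptors for formyl peptides, with which phagocytes sense bacteria, and Cd36 encodes a scavenger receptor for lipids.

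Cd36 had 7.21 and 7.24 in CD11b+ and 1.34 and 1.62 in LSK cells of Ptpn11D61Y/+ mice, and 5.79, 5.42 and 5.42 and 3.39, 4.54 and 3.40 in those of S3 mice. The S3 contrast was smaller, with a difference (S3 minus Ptpn11D61Y/+) of −4.08 (SE 0.59, adjusted p = 0.0463), with LSK levels higher and CD11b+ levels lower in each S3 library. Against MxCre mice the difference was −2.31 and was not called (adjusted p = 0.555).

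Fpr1 had 6.88 and 6.50 in CD11b+ cells and −3.69 and −4.86 in LSK cells of Ptpn11D61Y/+ mice, the latter from 8 and 1 counts, and 6.36, 6.15 and 4.87 and 0.07, 1.08 and 0.97 in S3 mice. The difference of contrasts was −6.44 (SE 0.98, adjusted p = 0.0463), and 0.28 against MxCre mice (adjusted p = 0.962). Fpr2 had 7.87 and 7.39 in CD11b+ cells and −3.03 and −4.07 in LSK cells of Ptpn11D61Y/+ mice, from 15 and 4 counts in LSK cells, and 7.69, 6.89 and 6.39 and −0.05, 1.37 and 1.16 in S3 mice. The difference was −5.37 (SE 0.83, adjusted p = 0.0463), and 1.17 against MxCre mice (adjusted p = 0.693). In both genes the CD11b+ libraries differed less between the genotypes than the LSK libraries did, and the cause was not tested.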

How the results depend on the processing

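The number of genes called in the S3 contrast, 5301, ranged from 2954 to 7175 when each library was left out in turn. It fell to 2954 without LSK 540, 3178 without LSK 768, 3304 without LSK 815 and 3480 without CD11b+ 540, and to 1398 without both 540 libraries, which leaves 2 libraries a fraction. Under the other 9 alternatives it lay between 3796 and 7359, and with the replicate block it was 5702. The difference of the S3 and MxCre contrasts, with 0 calls, ranged from 0 to 438 when each library was left out, with 438 without MxCre CD11b+ replicate 2 and 318 without both CD11b+ libraries with Xist and Eif2s3y counts. Without either MxCre library of a fraction the 1 left is assumed to vary like the other groups. DESeq2 called 141 and limma-voom 4, and with Ptpn11D61Y/+ libraries as controls 3 genes were called. The cause of these changes was not tested.

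Of 41 list medians, 10 changed sign under at least 1 alternative and 5 of these with library size alone, among them caspases at −0.17 and CDK inhibitors at −0.051. Of 203 named genes tested, 166 were called, 95 of them under every alternative, and 71 were lost under at least 1. The removal of both 540 libraries ended 70 of the calls and the replicate block 27. The block changed no call of a named gene other than those given beside it. Marco, Nkx2-3, Mecom and Bik had few or no counts in at least 1 fraction.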
